A study of Homo sapiens with 12 samples.

Results

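Proteasome genes were examined in human cardiomyocytes derived from induced pluripotent stem cells, with 12 libraries in which messenger RNA was counted at its 3′ end. The genes were the protein-coding genes whose symbols begin with PSMA, PSMB, PSMC, PSMD, PSME or PSMF followed by a digit, which gave 46 of 20120 protein-coding genes in the count table. By role they were 8 alpha and 7 constitutive beta subunits of the core particle, 4 beta subunits of the immunoproteasome and thymoproteasome, 6 ATPases, 3 other base subunits and 8 lid subunits of the regulatory particle, 3 assembly chaperones, and 5 activators and regulators. PSMC3IP and PSME3IP1 matched by name only, which left 44 genes with a role in the proteasome. The low-count filter kept 40 of the 46 for testing, and it left out PSMA8, PSMB8, PSMB9, PSMB10, PSMB11 and PSMC3IP.

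All cultures came from 1 clone, WTC-mEGFP-ACTN2-cl85, in which 1 of the 2 endogenous copies of ACTN2 (sarcomeric alpha-actinin) carries a C-terminal mEGFP tag, and all were enriched for cardiomyocytes in lactate medium. The vehicle group received DMSO, the endothelin-1 group 10 nM endothelin-1, the sacubitrilat group 16 µM sacubitrilat, and the combined group (called both here) the 2 compounds at the same doses, each for 48 h and in 3 cultures. Endothelin-1 is a peptide that acts through G protein-coupled receptors and enlarges cardiomyocytes, and sacubitrilat inhibits neprilysin, a peptidase of natriuretic peptides and endothelin-1. The stated primary questions are what endothelin-1 changes relative to vehicle, and what sacubitrilat changes in its presence.

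The depth of the libraries divided with the groups. The endothelin-1 and sacubitrilat libraries (called deep here) had totals of 1268308 to 1953122 counts, against 80844 to 316932 in the vehicle and combined libraries (called shallow). The median count per tested proteasome gene was 109.5 to 197.5 in a deep library and 4 to 22 in a shallow one. Thus endothelin-1 against sacubitrilat and both against vehicle compared libraries of like depth, and the other 4 pairs compared unlike depths. The titles, which set the groups here, conflict with a description line of 6 libraries: each library with 1 compound is there described with the other compound. Every result on endothelin-1 alone and sacubitrilat alone would be exchanged if the description were right and the titles wrong. The library names, from which the columns of the table were matched, go with the titles. Of 10 cardiomyocyte markers, 9 had counts in every library, and MYL2 was at 0 in 1 of the 12. Their summed level was 8083 to 12580 CPM (counts scaled to a common library total) with vehicle, 15940 to 17130 with endothelin-1, 11700 to 11850 with sacubitrilat and 11900 to 18800 with both. Fibroblast markers summed to 1806 to 5031 CPM with vehicle, 6762 to 7624 with endothelin-1, 7070 to 7376 with sacubitrilat and 2005 to 4519 with both, and of the 8 only LUM was at 0 in 1 library. The summed level of 7 endoderm markers was 190.9 to 655.6 CPM with vehicle and 459.4 to 561.4 with both, against 52.76 to 84.14 with endothelin-1 and 51.41 to 62.98 with sacubitrilat; AFP, FOXA2 and CDH1 were each at 0 in 1 library. Immune markers, 6 in number, summed to 19.05 to 105.1, 5.525 to 7.297, 5.876 to 8.082 and 63.02 to 77.81 CPM with vehicle, endothelin-1, sacubitrilat and both, and CD3E was at 0 in all 12. These sums rest on 20, 32, 32 and 27 counts in the same order. CD14 was at 0 in 9 libraries, CD68 and LCP1 each in 3, and PTPRC in 2. In bulk RNA, fewer cells of a type and less RNA per cell cannot be told apart.

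The proteasome degrades proteins marked with ubiquitin. Its core particle (20S) is a barrel of alpha and beta rings, in which PSMB5, PSMB6 and PSMB7 carry the catalytic sites and the alpha rings gate entry. The regulatory particle (19S) binds and unfolds the substrate with a ring of ATPases, and its lid removes ubiquitin. Interferon replaces the catalytic subunits by PSMB8, PSMB9 and PSMB10, which form the immunoproteasome, and other activators bind the core in place of the regulatory particle. The transcription factor NFE2L1 raises many proteasome genes together when proteasome activity falls short, by binding antioxidant response elements. In heart muscle the system turns over sarcomere proteins that ligases such as FBXO32 and TRIM63 mark.

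Promoters were read from RefSeq (GRCh38.p14), which held 41 of the 46 genes, and the 250 bases before each start were searched on both strands. The core of the antioxidant response element, TGACNNNGC, stood in 9 of 41 (22.0%), against 11% of 27305 promoters of the same length. A CCAAT box (CCAAT) stood in 19 of 41 (46.3%), against 33% of all. These matches are descriptions of the sequence and not measured sites. The promoters of 4 genes on which the results turn are shown 5′ to 3′, in lower case with the matches in capitals: PSMD3, which had the largest differences, PSMB4, which moved with it, PSMB2, which differed between the deep groups, and PSMD1, which moved the opposite way.
PSMD3, chr17:39980557-39980806, plus strand: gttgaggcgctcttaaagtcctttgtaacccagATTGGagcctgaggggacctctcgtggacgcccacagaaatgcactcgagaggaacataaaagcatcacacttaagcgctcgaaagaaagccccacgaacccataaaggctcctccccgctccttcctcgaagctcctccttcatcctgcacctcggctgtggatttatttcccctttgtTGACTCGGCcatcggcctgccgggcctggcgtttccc
PSMB4, chr1:151399323-151399572, plus strand: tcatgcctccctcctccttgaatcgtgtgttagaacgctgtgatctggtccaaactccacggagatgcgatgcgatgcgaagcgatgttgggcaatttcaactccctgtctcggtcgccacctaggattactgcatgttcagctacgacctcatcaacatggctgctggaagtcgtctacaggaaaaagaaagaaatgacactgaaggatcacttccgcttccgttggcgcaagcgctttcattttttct
PSMB2, chr1:35641527-35641776, minus strand: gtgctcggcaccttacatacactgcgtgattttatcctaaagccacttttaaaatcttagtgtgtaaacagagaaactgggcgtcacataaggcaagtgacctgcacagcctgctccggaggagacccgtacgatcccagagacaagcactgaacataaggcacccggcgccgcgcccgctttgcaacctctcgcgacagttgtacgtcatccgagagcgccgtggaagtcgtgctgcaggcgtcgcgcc
PSMD1, chr2:231056617-231056866, plus strand: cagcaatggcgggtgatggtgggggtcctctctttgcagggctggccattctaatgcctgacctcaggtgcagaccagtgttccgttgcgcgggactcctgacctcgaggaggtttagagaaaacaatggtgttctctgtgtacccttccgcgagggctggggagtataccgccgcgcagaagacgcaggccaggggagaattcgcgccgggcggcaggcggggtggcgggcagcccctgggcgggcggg
In the PSMD3 promoter TGACNNNGC starts 37 bases before the start on the plus strand, and CCAAT lies on the minus strand (ATTGG as printed). The other 3 windows held neither motif, and the 2 hits in PSMD3 do not overlap.

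Summed over the 46 genes, the share of counts was highest with sacubitrilat. The sum was 3606, 3647 and 3827 CPM in the vehicle libraries, 3959, 4004 and 3813 with endothelin-1, 4647, 4339 and 4679 with sacubitrilat, and 2675, 3690 and 3732 with both. The 3 sacubitrilat libraries stood above the other 9, vehicle and endothelin-1 overlapped, and combined library 1 stood below all others. The 15 alpha and constitutive beta genes of the core summed to 1676 ± 131, 1861 ± 39.7, 2191 ± 152 and 1416 ± 127 CPM (SD, n = 3) with vehicle, endothelin-1, sacubitrilat and both. The 17 ATPase, base and lid genes of the regulatory particle summed to 1496 ± 82.9, 1524 ± 56.9, 1776 ± 37 and 1562 ± 376 CPM in the same order. In CPM the core sum was lowest in the combined group, without overlap with any other group. The regulatory particle sum of that group ran from below all other libraries to within the sacubitrilat range. The sums of the 46 genes rest on 2091, 19510, 20968 and 1323 counts in the 4 groups. CPM leaves out the scaling factors of the tests below, which were 0.903, 1.21 and 0.999 in the vehicle libraries. In the combined libraries they were 1.1, 0.948 and 0.984. The order and overlap of these sums can differ after that scaling, which was not applied to them.

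**Figure D1:**
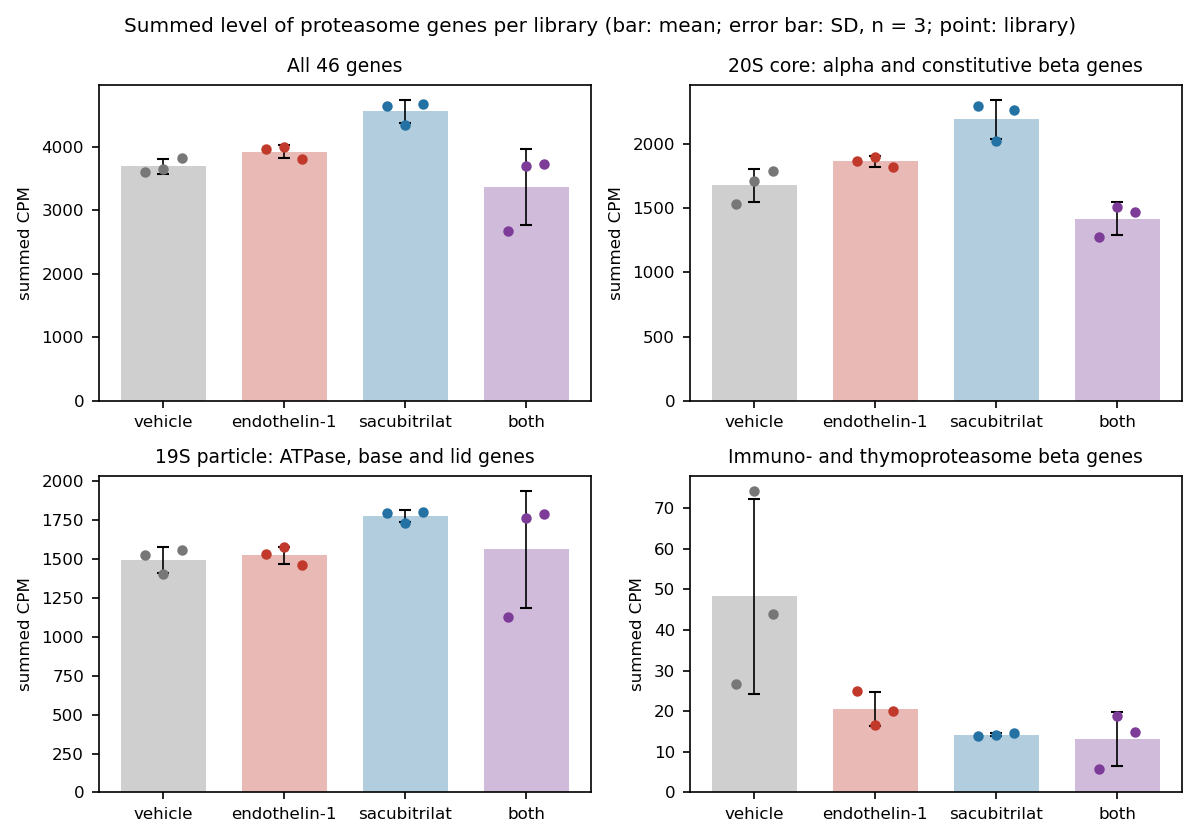
Summed CPM (y axis) of all 46 genes, of the core, of the regulatory particle and of the immunoproteasome and thymoproteasome beta genes in the 4 groups (x axis). Bars are means, error bars SD and points the 3 libraries. The sacubitrilat libraries hold the highest sums of all 46 genes (4339 to 4679 CPM), and the last panel has a scale that ends below 80 CPM.

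Endothelin-1 against sacubitrilat compared deep libraries. PSMB2 and PSMB1, structural subunits of the beta ring, were lower with endothelin-1, by 1.34-fold and 1.28-fold, and no tested proteasome gene was higher. In CPM, given library by library further on, neither gene's groups overlapped. Log2 fold changes were -0.42 ± 0.11 and -0.36 ± 0.11 (± SE here and below), and edgeR adjusted p were 0.0106 and 0.0215 (quasi-likelihood test, n = 3 per group, Benjamini-Hochberg over 11203 genes, threshold 0.05). With 2 of 40 genes lower, against 4.78% of all genes, and 0 higher, against 6.44%, the share of proteasome genes called was close to or below the background. At an unadjusted p under 0.05, 5 genes were lower and 0 higher by edgeR, and DESeq2 and limma-voom also called 0 higher. PSMB8, which the filter removed, made the count of higher genes 1 with no filter and in fits without any 1 of the 6 shallow libraries, as described with the immunoproteasome. Estimates were below 0 for 29 of 40, against 52.1% of all genes, with a median of -0.11 against -0.01 over all genes. In CPM 16 genes had all 3 endothelin-1 libraries below all 3 sacubitrilat libraries (background 25.6%) and 0 had them above (10.2%). The CPM sum was 1.16 times as high with sacubitrilat, and the edgeR estimates also take in scaling factors of 0.938 to 0.945 for endothelin-1 and 0.989 to 1.04 for sacubitrilat libraries. PSMC4, an ATPase, was 1.27-fold lower with endothelin-1 without overlap but did not pass (log2 -0.34 ± 0.12, edgeR adjusted p = 0.0631), and it passed in the fit of these 2 groups alone (edgeR adjusted p = 0.00637). Neither called gene passed without endothelin-1 library 1 (edgeR adjusted p = 0.0501 for PSMB2 and 0.0849 for PSMB1) or 3 (0.0763 and 0.104). The same held without sacubitrilat library 3 (0.0778 and 0.107) and with limma-voom (adjusted p = 0.169 and 0.244). Both calls were also lost with no filter (edgeR adjusted p = 0.0603 for PSMB2 and 0.19 for PSMB1). After all libraries were thinned to a common depth, PSMB1 did not pass (log2 -0.66, edgeR adjusted p = 0.596). With the replicate number as a block, PSMB1 had edgeR adjusted p = 0.0988 and the count of lower genes was 1. In the same comparison 6 of 10 cardiomyocyte markers were higher with endothelin-1 and 0 lower, and their part in these differences was not tested.

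Both against vehicle compared shallow libraries, and no proteasome gene passed. Of 40 tested genes 0 were higher and 0 lower by edgeR, by DESeq2 and by limma-voom, against 0.0803% and 0.0982% of all genes by edgeR. At an unadjusted p under 0.05, 1 gene was lower, PSMB2 (log2 -0.88 ± 0.39, 95% interval -1.65 to -0.11, edgeR adjusted p = 0.367). Estimates were below 0 for 25 of 40 (55.3% of all genes), with a median of -0.16 against -0.08 over all. The combined libraries lay below all vehicle libraries for 8 genes (background 7.83%) and above them for 0 (4.94%). The 8 genes, singled out by this count, were PSMA4, PSMA7, PSMB2, PSMB6, PSMD3, PSME3, PSME4 and PSME3IP1. For PSMD3 the log2 difference was -0.93 ± 0.48 (edgeR adjusted p = 0.466). In counts simulated for this comparison (10069 genes, with changed genes at 20 to 400 CPM), 12% of 2-fold changes and 62% of 4-fold changes were recovered, so differences under 2-fold were mostly not detectable at this depth.

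**Figure D2:**
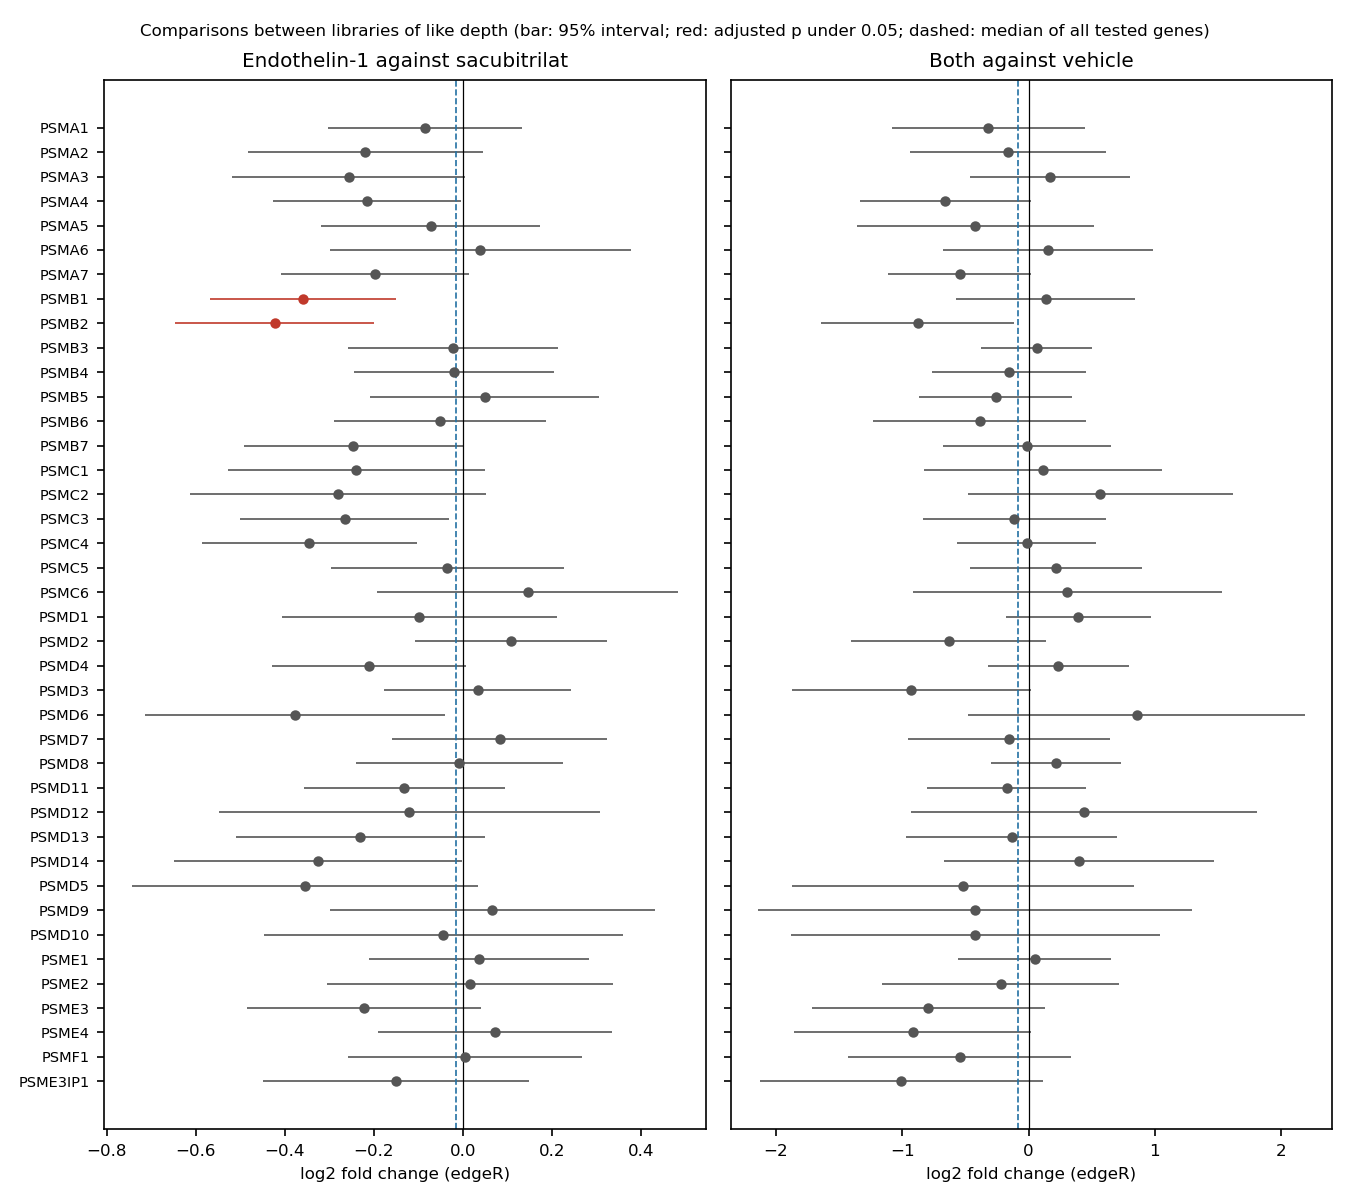
Log2 fold changes from edgeR (x axis, 95% intervals) of the 40 tested genes (y axis, by role) in the 2 comparisons of like depth. Red marks adjusted p under 0.05, and the dashed line is the median of all tested genes; PSMB1 and PSMB2 are red on the left, none is red on the right, and the x axes differ.

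Endothelin-1 against vehicle, the first primary comparison, set libraries 8.75 times deeper against shallow ones. PSMD3 (lid), PSMB1, PSMB4 and PSMB5 (beta ring) and PSMD2 (base) rose with endothelin-1, by 1.49-fold to 2.05-fold, and none fell. That is 5 of 40 higher, against 11% of all genes, and 0 lower, against 12.2%. At an unadjusted p under 0.05, 7 were higher and 2 lower by edgeR, and DESeq2 and limma-voom called 0 lower. The median estimate was 0.10, as it was over all genes (0.10), and it became -0.23 (all genes 0.01) when genes with a mean of at least 50 counts were tested, which kept 26 of the 46. The endothelin-1 libraries lay above all vehicle libraries for 8 genes (background 24.1%) and below them for 5 (19%). The count of 5 higher fell to 2 without vehicle library 2, to 3 without endothelin-1 library 1 or 3 or sacubitrilat library 1, and to 0 after all libraries were thinned to 80000 counts, which left 16 genes tested. PSMC4 was lower without overlap but did not pass (edgeR adjusted p = 0.0732), and it made the count of lower genes 1 without endothelin-1 library 2 or any 1 sacubitrilat library. PSMA3 made it 1 without endothelin-1 library 1.

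Sacubitrilat against vehicle set libraries 8.06 times deeper against shallow ones. PSMB1 rose 2.46-fold, the lid genes PSMD6 and PSMD3 2.53-fold and 2.00-fold, and PSMB4 1.59-fold. With 4 of 40 higher, against 8.68% of all genes, and 0 lower, against 11.2%, no excess over the background was seen. At an unadjusted p under 0.05, 9 were higher and 0 lower by edgeR, and DESeq2 and limma-voom called 0 lower. The median was 0.22 against 0.14 over all genes, and -0.08 against 0.01 for genes with a mean of at least 50 counts. The sacubitrilat libraries lay above all vehicle libraries for 13 genes (background 28.1%) and below them for 2 (15.8%). The count of 4 fell to 2 without sacubitrilat library 1 or 3 and to 0 after thinning. Endothelin-1 and sacubitrilat were each compared with the same vehicle libraries, so the 2 sets of differences share their controls.

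Both against endothelin-1, the second primary comparison, set shallow libraries against ones 13.1 times deeper. PSMD3 was 3.90-fold lower and PSMD2 2.44-fold lower with both compounds, followed by 4 beta genes (PSMB1, PSMB4, PSMB5 and PSMB6), 3 alpha genes (PSMA1, PSMA4 and PSMA5) and the activator PSME4. PSMA3 and PSMD1 were higher, by 1.64-fold and 1.65-fold. These were 10 of 40 lower, against 17.8% of all genes, and 2 higher, against 16.6%. The median was -0.27 against -0.23 over all genes, and it turned to 0.07 (all genes -0.08) for genes with a mean of at least 50 counts, where 2 were lower and 8 higher. All 3 combined libraries lay below all endothelin-1 libraries for 17 genes (background 31.6%) and above for 4 (20.9%). The count of 10 was 16 without vehicle library 1, and 6 without endothelin-1 library 1 or 2, any 1 sacubitrilat library or combined library 2. The count of 2 higher was 0 without vehicle library 1 or 3 or combined library 2 or 3, 1 without vehicle library 2, and 4 without sacubitrilat library 2. After thinning, 0 genes were lower and 1 higher of 16 tested.

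Both against sacubitrilat set shallow libraries against ones 12 times deeper, and the genes that fell were again mostly of the core. PSMD3 was 3.81-fold lower, PSMB2 2.30-fold, PSMD2 2.26-fold and PSMB1 2.24-fold, and PSMA1, PSMA4, PSMA5, PSMA7, PSMB4, PSMB5 and PSMB6 were lower by 1.66-fold to 2.13-fold. PSMD1 was 1.54-fold higher. That is 11 of 40 lower, against 17.8% of all genes, and 1 higher, against 17.2%. The median was -0.46 against -0.25 over all genes, and -0.05 against -0.08 for genes with a mean of at least 50 counts. With that filter more proteasome genes were called higher than lower. All 3 combined libraries lay below all sacubitrilat libraries for 18 genes (background 35.3%) and above for 2 (19.4%). The count of 11 was 17 without vehicle library 1 and 7 without sacubitrilat library 3, and after thinning it was 1. PSMD1 did not pass with the replicate block (edgeR adjusted p = 0.0889), with DESeq2 (adjusted p = 0.286) or limma-voom (0.358), or without vehicle library 1 (edgeR 0.120) or 3 (0.125), sacubitrilat library 3 (0.0684), or combined library 2 (0.747) or 3 (0.430). The count of higher genes was 0 with the block and 2 without endothelin-1 library 3 or sacubitrilat library 1. This comparison and the one before it share the combined libraries. In all 4 comparisons of unlike depth the treatment and the depth of its libraries cannot be told apart.

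**Figure D3:**
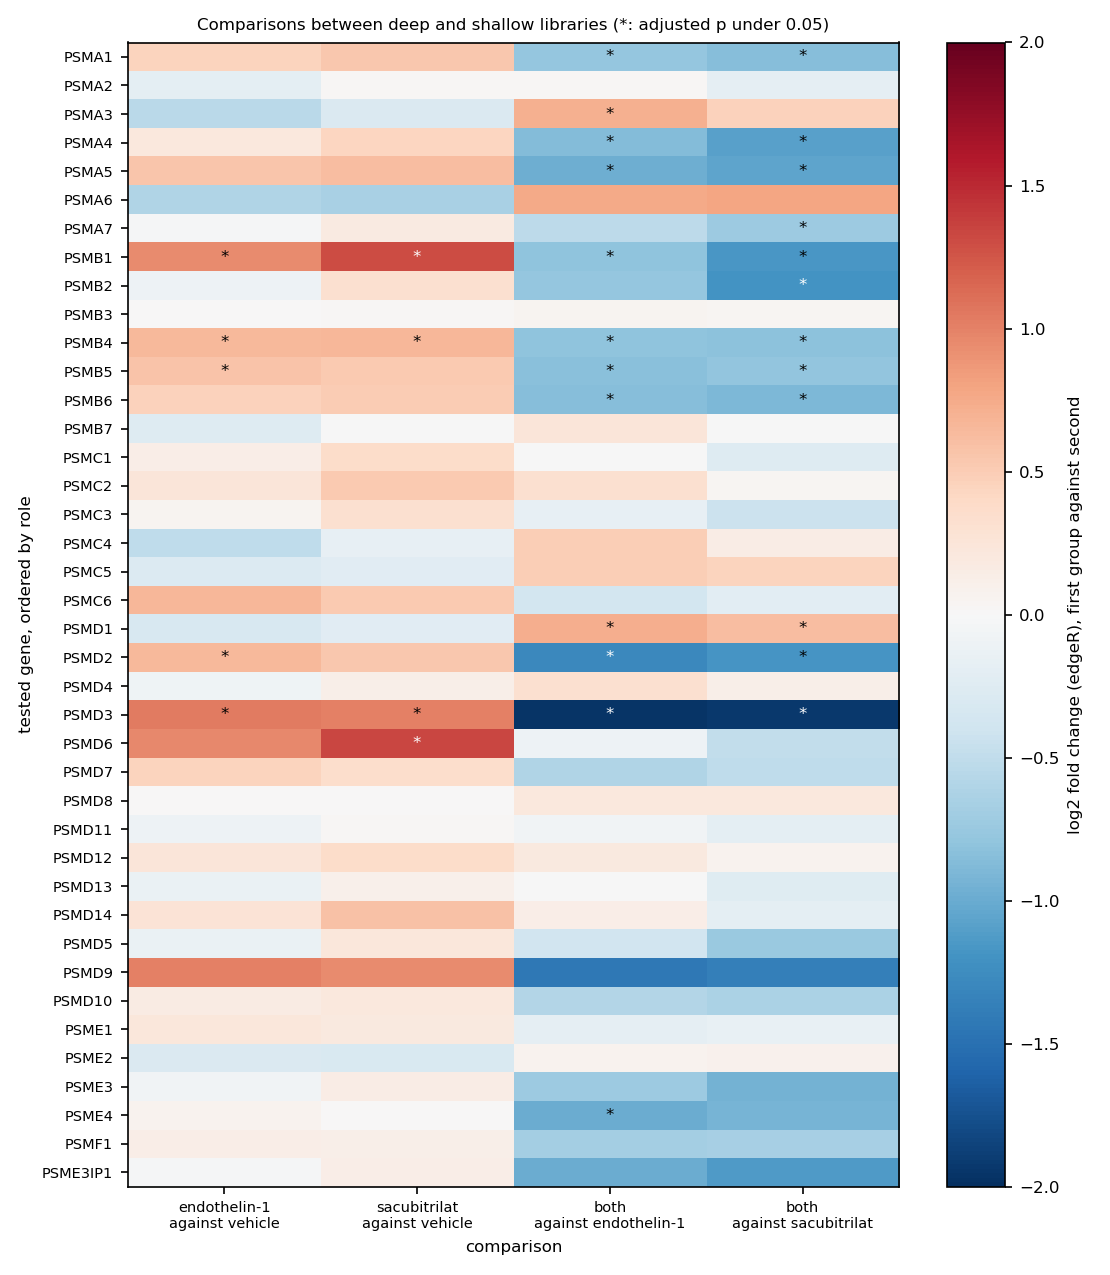
Log2 fold changes from edgeR (colour, from -2 to 2) of the 40 tested genes (y axis, by role) in the 4 comparisons of deep with shallow libraries (x axis). Stars mark adjusted p under 0.05; PSMD3 carries a star in each column, red where a deep group is set against vehicle and blue where the combined group is set against a deep group.

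Among the alpha ring genes, levels were lowest in the combined group for 3 genes that fell. PSMA1 (chromosome 11, 14504876 to 14643662, GRCh38) stood at 69.4, 74.2 and 64.5 CPM with vehicle, 92, 90.6 and 92.5 with endothelin-1, 106, 106 and 105 with sacubitrilat, and 74.5, 44.1 and 55.6 with both. The deep groups did not overlap with the shallow ones or with each other. PSMA4 stood at 114, 111 and 123 CPM with vehicle, 123, 132 and 140.2 with endothelin-1, 177, 169 and 154 with sacubitrilat, and 103, 56.7 and 74.1 with both. Its combined libraries lay below all others. PSMA7 stood at 145, 284 and 152 CPM with vehicle, 159, 170.3 and 159 with endothelin-1, 198, 198 and 209 with sacubitrilat, and 103, 107 and 133 with both. The vehicle libraries spanned all values of the deep groups, and the combined libraries lay below every other library. For both against sacubitrilat the log2 differences were -0.85 ± 0.30 (PSMA1, edgeR adjusted p = 0.0242), -1.09 ± 0.27 (PSMA4, 0.00211) and -0.73 ± 0.24 (PSMA7, 0.0157). PSMA1 did not pass there without combined library 2 (edgeR adjusted p = 0.0905), nor PSMA7 without sacubitrilat library 3 (0.0591). PSMA1 also fell against endothelin-1 (edgeR adjusted p = 0.0447) but passed in 4 of 12 fits that left out 1 library, and was lost without any 1 deep library or combined library 2 or 3 (0.0581 to 0.132), and with the replicate block (0.0590). PSMA4 fell there too (edgeR adjusted p = 0.0144) in 11 of 12, with 0.0687 without combined library 2. PSMA7 did not pass against endothelin-1 in the reported fit. It was lower with both there with no filter (edgeR adjusted p = 0.00324), and without any 1 vehicle library (0.0101 to 0.0336) or combined library 3 (0.0482). PSMA3 went the other way, at 78.9, 198 and 129 CPM with vehicle, 85.9, 78 and 61.1 with endothelin-1, 109, 83.6 and 97.8 with sacubitrilat, and 149, 126 and 111 with both. All combined libraries lay above all endothelin-1 libraries (log2 0.71 ± 0.28, edgeR adjusted p = 0.0423), and the call held in 6 of 12 fits with 1 library left out. It was lost without any 1 vehicle or combined library, at 0.0721 to 0.306. PSMA2, PSMA5 and PSMA6 ranged over 34.4 to 91.3, 31.5 to 93.7 and 25.6 to 95.9 CPM, and of them PSMA5 alone passed a pairwise test in the reported fit. PSMA5 fell in the combined group against endothelin-1 (log2 -0.98 ± 0.37, edgeR adjusted p = 0.0358) and sacubitrilat (-1.05 ± 0.36, 0.0227). The first call was lost without endothelin-1 library 1 or 3, any 1 sacubitrilat library or combined library 1 or 2 (0.0503 to 0.111), and the second without sacubitrilat library 3 (0.0650) or combined library 2 (0.0831). PSMA6, named after its values were seen, was higher with both by limma-voom against endothelin-1 (adjusted p = 0.0401) and sacubitrilat (0.0275). It also passed by edgeR against endothelin-1 without sacubitrilat library 2 (0.0474), and against sacubitrilat without endothelin-1 library 3 (0.0489) or sacubitrilat library 1 (0.0441) or 3 (0.0390). PSMA8, the alpha subunit known from testis, had 0 counts in all libraries, which allows up to 0.603 CPM in the pooled endothelin-1 group and 7.87 in the pooled combined group (floor of 3 counts, counting error only).

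The catalytic genes of the constitutive core differed among themselves. PSMB5 (chromosome 14, 23025851 to 23035220), the chymotrypsin-like site, stood at 189, 136 and 264 CPM with vehicle, 303, 294 and 288 with endothelin-1, 348, 251 and 327 with sacubitrilat, and 80.2, 157 and 245 with both. The endothelin-1 libraries were tight and above all shallow ones, while sacubitrilat library 2 fell below vehicle library 3. PSMB5 rose with endothelin-1 against vehicle (log2 0.57 ± 0.21, edgeR adjusted p = 0.0419), did not pass with sacubitrilat (0.52 ± 0.21, 0.0720), and fell in the combined group against endothelin-1 (-0.83 ± 0.25, 0.00828) and sacubitrilat (-0.78 ± 0.25, 0.0130). The difference of the 2 deep groups was 0.05 ± 0.13 (95% interval -0.21 to 0.31), and the rise against vehicle held in 5 of 12 fits with 1 library left out. The rise was lost without vehicle library 2 or any 1 deep library, at edgeR adjusted p of 0.0665 to 0.124, and with the replicate block (0.0632). With sacubitrilat it passed without vehicle library 3 (0.0399) or combined library 1 (0.0360) or 3 (0.0444). It also passed there with no filter (0.0102) and under RLE scaling (0.0477). Its fall against sacubitrilat was lost without sacubitrilat library 1 (0.0799) or 3 (0.0673) or combined library 1 (0.0677). PSMB6, the caspase-like site, stood at 78.9, 61.8 and 64.5 CPM with vehicle, 96, 113 and 83.7 with endothelin-1, 120.5, 89.1 and 115 with sacubitrilat, and 57.3, 56.7 and 51.9 with both. The combined libraries lay closest together and below all others, and the gene fell there against endothelin-1 (log2 -0.85 ± 0.33, edgeR adjusted p = 0.0449) and sacubitrilat (-0.90 ± 0.33, 0.0322), calls that held in 4 and 5 of 12 fits with 1 library left out. The first was lost without endothelin-1 library 1 or 2, or any 1 sacubitrilat or combined library (0.0639 to 0.125), and with the replicate block (0.0547). The second was lost without endothelin-1 library 1 or 3, sacubitrilat library 1 or 3, or any 1 combined library (0.0507 to 0.0897). PSMB7, the trypsin-like site, stood at 107, 99 and 105 CPM with vehicle, 88.7, 82.8 and 87.8 with endothelin-1, 113, 102 and 117 with sacubitrilat, and 45.8, 157 and 81.5 with both. It passed no pairwise test in the reported fit, and its combined libraries spanned all other values. With a mean of at least 50 counts it was higher with both than with endothelin-1 (edgeR adjusted p = 0.0499).

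The structural beta genes held the calls between the deep groups. PSMB1 (chromosome 6, 170535120 to 170553307) stood at 66.3, 74.2 and 111 CPM with vehicle, 149, 160.1 and 148 with endothelin-1, 202, 205 and 225 with sacubitrilat, and 126, 81.9 and 74.1 with both. Its sacubitrilat libraries lay above all endothelin-1 libraries, and these above all shallow ones, whereas vehicle and both overlapped (log2 0.14 ± 0.36 between them). PSMB1 rose against vehicle with endothelin-1 (log2 0.94 ± 0.23, edgeR adjusted p = 0.00251) and sacubitrilat (1.297 ± 0.22, 4.14e-05), and it fell in the combined group against each (-0.80 ± 0.26, 0.0162, and -1.16 ± 0.25, 4.70e-04). The fall against endothelin-1 held in 10 of 12 fits with 1 library left out and the 3 other calls in 12 of 12, the former, with edgeR adjusted p = 0.0507 without endothelin-1 library 2 and 0.0528 without combined library 3. PSMB2 (chromosome 1, 35599541 to 35641526) stood at 88.3, 114 and 87.9 CPM with vehicle, 81.4, 92.6 and 77.6 with endothelin-1, 119, 113 and 129.9 with sacubitrilat, and 34.4, 63 and 44.5 with both. Vehicle overlapped with both deep groups, and the combined libraries lay below all others. Against sacubitrilat PSMB2 fell in the combined group (log2 -1.20 ± 0.31, edgeR adjusted p = 0.00291), in 12 of 12 fits with 1 library left out. Against endothelin-1 it did not pass in the reported fit. It was lower with both there by limma-voom (adjusted p = 0.0412) and with no filter (edgeR 0.00539). The same held without any 1 vehicle library (edgeR 0.0130 to 0.0334) or combined library 2 (0.0371). PSMB4 (chromosome 1, 151399573 to 151401937) stood at 164, 111 and 141 CPM with vehicle, 220.0, 234 and 228 with endothelin-1, 264, 214 and 268 with sacubitrilat, and 80.2, 170.0 and 126 with both. Deep and shallow libraries did not overlap, and the deep groups did, with a log2 difference of -0.02 ± 0.11 (95% interval -0.24 to 0.20). PSMB4 passed all 4 comparisons of unlike depth, with log2 differences of 0.65 ± 0.20 and 0.67 ± 0.20 against vehicle (edgeR adjusted p = 0.0178 and 0.0167) and -0.80 ± 0.24 and -0.82 ± 0.24 in the combined group (0.00915 and 0.00757). Against vehicle the endothelin-1 call was lost without vehicle library 2 (edgeR adjusted p = 0.0521) or 3 (0.0629), and the sacubitrilat call without vehicle library 3 (0.0652) or sacubitrilat library 1 (0.0514) or 3 (0.0640). PSMB3 ranged over 247 to 381 CPM and passed no pairwise test in the reported fit, and with a mean of at least 50 counts it was higher with both than with endothelin-1 (edgeR adjusted p = 0.0199) and sacubitrilat (0.0246).

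**Figure D4:**
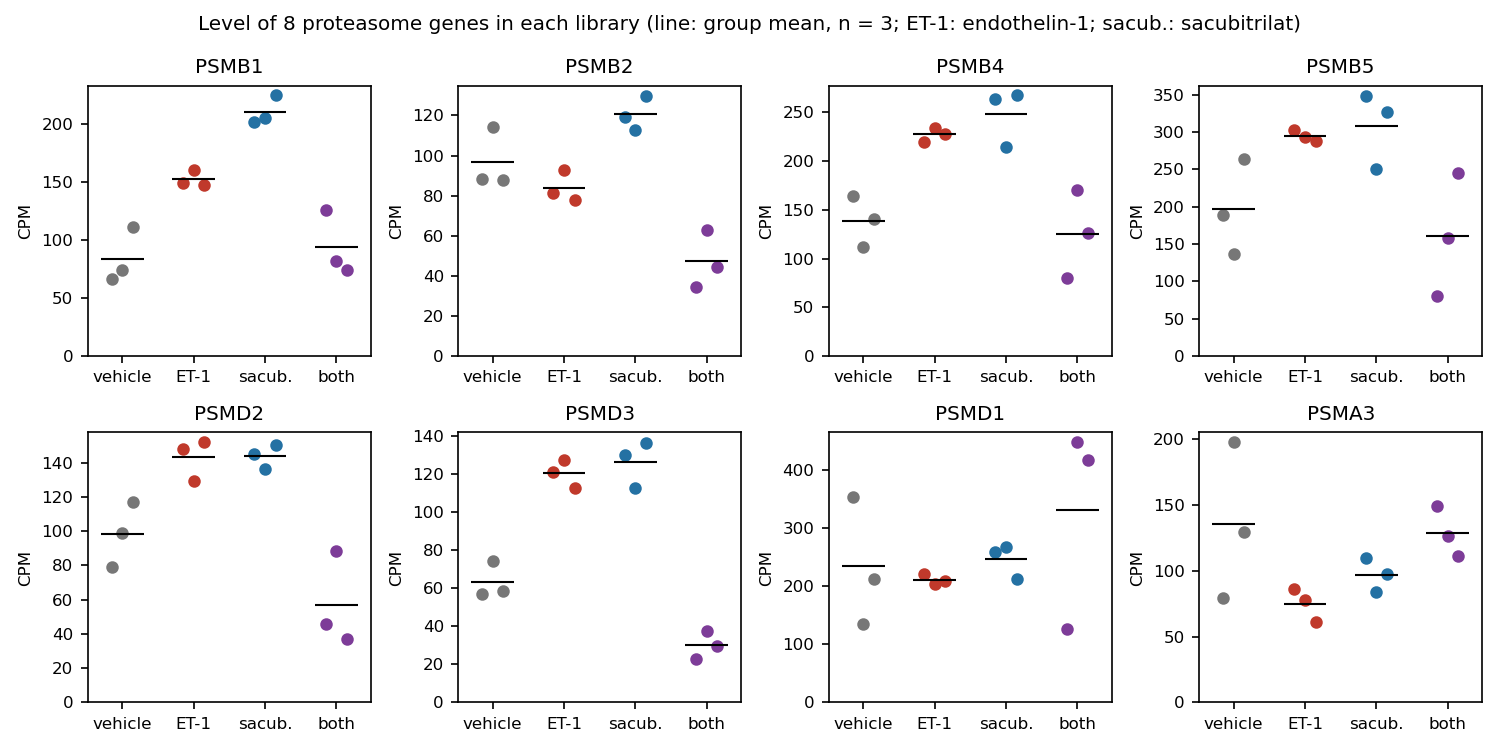
CPM (y axis, from 0) of 8 proteasome genes in each library (points) of the 4 groups (x axis), with lines at the group means. PSMB1 and PSMB2 are lower with endothelin-1 than with sacubitrilat without overlap, PSMB4, PSMD2 and PSMD3 separate deep from shallow libraries, and PSMD1 has the largest SD of the 8 genes in each shallow group (111 CPM with vehicle and 178 with both).

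In the regulatory particle the calls of the reported fit fell on base and lid genes. The 6 ATPases gave 0 calls in the 6 pairwise comparisons there, and 0 by DESeq2 and limma-voom. At an unadjusted p under 0.05 by edgeR, PSMC4 was lower with endothelin-1 than with vehicle and with sacubitrilat, and PSMC3 was lower than with sacubitrilat. PSMC4 (chromosome 19, 39971165 to 39981764) stood at 174, 198 and 182 CPM with vehicle, 125, 128 and 117 with endothelin-1, 154, 181 and 175 with sacubitrilat, and 68.7, 195 and 229.7 with both. The endothelin-1 libraries lay below those of vehicle and sacubitrilat. Against endothelin-1, PSMC4 was higher with both in 6 alternative fits: with a mean of at least 50 counts (log2 0.91, edgeR adjusted p = 0.00420), of the 2 groups alone (0.0459), without the 2 libraries under 100000 counts (0.00857), and without sacubitrilat library 1 (0.0455) or 2 (0.0460) or combined library 1 (0.0334). With a mean of at least 50 counts PSMC4 was also higher with both than with sacubitrilat (edgeR adjusted p = 0.0489), as was PSMC5 (0.0176, and 0.0148 against endothelin-1). PSMC3 was lower there with no filter (0.0262); PSMC5 and PSMC3 were named after their values were seen. PSMD2 (chromosome 3, 184299241 to 184309050), a base scaffold that receives substrate carriers, stood at 78.9, 99 and 117 CPM with vehicle, 148, 129 and 152 with endothelin-1, 145, 136 and 150.02 with sacubitrilat, and 45.8, 88.2 and 37.1 with both. Deep libraries lay above all shallow ones. PSMD2 rose with endothelin-1 (log2 0.65 ± 0.22, edgeR adjusted p = 0.0321), did not pass with sacubitrilat (0.54 ± 0.23, 0.0877), and fell in the combined group against endothelin-1 (-1.28 ± 0.30, 0.00106) and sacubitrilat (-1.18 ± 0.31, 0.00280). Its rise with endothelin-1 passed in 7 of 12 fits with 1 library left out. It was lost without vehicle library 1 or 2, endothelin-1 library 1 or 3 or sacubitrilat library 1 (edgeR adjusted p 0.0515 to 0.0986). With sacubitrilat PSMD2 passed against vehicle with no filter (edgeR adjusted p = 0.0314). PSMD1 (chromosome 2, 231056867 to 231172827), the other large base scaffold, stood at 354, 136 and 213 CPM with vehicle, 222, 204 and 209 with endothelin-1, 259, 268 and 214 with sacubitrilat, and 126, 449 and 419 with both. Combined library 1 lay below all deep libraries and the other 2 above them, so the groups overlapped although the gene was called higher (log2 0.72 ± 0.25, edgeR adjusted p = 0.0212, against endothelin-1). That call was lost without vehicle library 1 (edgeR adjusted p = 0.0534) or 3 (0.0681), or combined library 2 (0.593) or 3 (0.308), and with DESeq2 (adjusted p = 0.201), limma-voom (0.254) or no filter (0.630). PSMD4, a ubiquitin receptor, stood at 134, 173 and 93.8 CPM with vehicle, 119.8, 117 and 113 with endothelin-1, 163, 129 and 146 with sacubitrilat, and 137, 145 and 163 with both. It passed no pairwise test in the reported fit, and with a mean of at least 50 counts it was higher with both than with endothelin-1 (edgeR adjusted p = 0.0108).

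PSMD3 (ENSG00000108344, chromosome 17, 39980807 to 39997959), a lid subunit, had the clearest separation. It stood at 56.8, 74.2 and 58.6 CPM with vehicle, 121, 128 and 112 with endothelin-1, 130.0, 113 and 136 with sacubitrilat, and 22.9, 37.8 and 29.6 with both. All deep libraries lay above all vehicle libraries, and these above all combined libraries, while the deep groups overlapped (log2 0.03 ± 0.11). The log2 difference was 1.035 ± 0.25 for endothelin-1 and 1.00 ± 0.25 for sacubitrilat against vehicle (edgeR adjusted p = 0.00191 and 0.00341), and -1.963 ± 0.35 and -1.93 ± 0.35 for both against endothelin-1 and sacubitrilat (3.75e-05 and 5.39e-05). Each of these 4 calls held in all 21 alternatives that tested the gene, the 12 with 1 library left out among them; thinning to 80000 counts left it untested. The combined value rests on 12 counts in 3 libraries. PSMD6, also of the lid, stood at 6.31, 24.7 and 29.3 CPM with vehicle, 28.6, 34.3 and 29.1 with endothelin-1, 43.3, 32.3 and 49.7 with sacubitrilat, and 45.8, 18.9 and 29.6 with both. Vehicle library 1 stood far below the rest, and the rise with sacubitrilat against vehicle (log2 1.34 ± 0.45, edgeR adjusted p = 0.0307) did not pass without it (0.282), nor without sacubitrilat library 1 (0.0524) or 3 (0.0909). PSMD11, a lid subunit linked to assembly of the complete particle, stood at 129, 111 and 85 CPM with vehicle, 104, 103 and 99.4 with endothelin-1, 126, 107 and 128 with sacubitrilat, and 91.7, 88.2 and 119 with both. PSMD14, the lid deubiquitinase, stood at 22.1, 12.4 and 58.6 CPM with vehicle, 39.3, 39.4 and 33.7 with endothelin-1, 49.9, 41 and 58.4 with sacubitrilat, and 22.9, 56.7 and 37.1 with both. Both genes were lower with endothelin-1 than with sacubitrilat without overlap, and neither passed a pairwise test. PSMD7, PSMD8, PSMD12 and PSMD13 ranged over 50.5 to 119, 136 to 258, 7.41 to 56.7 and 45.8 to 92.7 CPM and passed none in the reported fit. The chaperones PSMD5, PSMD9 and PSMD10, which help assemble the base, stood at 0 to 41, 5.73 to 32.8 and 5.86 to 24.7 CPM and passed no pairwise test there either. PSMD7, PSMD8 and PSMD9 passed in alternatives and are named after their values were seen. PSMD7 was lower with both than with endothelin-1 with no filter (edgeR adjusted p = 0.00759), without the 2 libraries under 100000 counts (0.0378), and without vehicle library 1 (0.0235) or combined library 1 (0.0461), and lower than with sacubitrilat with no filter (0.0168) or without vehicle library 1 (0.0429). PSMD9 was lower with both than with endothelin-1 with no filter (0.0238) or without vehicle library 1 (0.0269), 2 (0.0431) or 3 (0.0456), and lower than with sacubitrilat with no filter (0.0317) or without vehicle library 1 (0.0347). PSMD8 was higher with both than with endothelin-1 (0.0110) and sacubitrilat (0.0113) with a mean of at least 50 counts.

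Of the activators, PSME4 alone passed a pairwise test in the reported fit. PSME4 (chromosome 2, 53864069 to 53970993), the nuclear activator PA200, stood at 56.8, 61.8 and 46.9 CPM with vehicle, 58.9, 56.5 and 53.5 with endothelin-1, 53.8, 61.7 and 58.9 with sacubitrilat, and 34.4, 28.3 and 29.6 with both. The combined libraries lay below the other 9, with a log2 difference of -0.995 ± 0.40 against endothelin-1 (edgeR adjusted p = 0.0474). That call held in 3 of 12 fits with 1 library left out, those without a vehicle library, and was lost without any 1 of the other 9, at edgeR adjusted p of 0.0570 to 0.116, as with the replicate block (0.0597). Against sacubitrilat PSME4 was lower with no filter (edgeR adjusted p = 0.0129) and without vehicle library 1 (0.0199), 2 (0.0338) or 3 (0.0434). PSME3, the nuclear activator PA28 gamma, stood at 50.5, 49.5 and 64.5 CPM with vehicle, 46.6, 55 and 51.8 with endothelin-1, 64.6, 64.7 and 64.1 with sacubitrilat, and 22.9, 31.5 and 37.1 with both. It was lowest with both without overlap, and did not pass in the reported fit. Against sacubitrilat it was lower with both under RLE scaling (edgeR adjusted p = 0.0456), by limma-voom (0.0398), with no filter (0.00698), with pseudogene counts added (0.0493), and without vehicle library 1 (0.0131), 2 (0.0226) or 3 (0.0309), and against endothelin-1 with no filter (0.0396). The interferon-inducible activator pair is PSME1 and PSME2. PSME1 stood at 199, 99 and 146 CPM with vehicle, 209.9, 172 and 188 with endothelin-1, 187, 194 and 219.7 with sacubitrilat, and 91.7, 164 and 237 with both. PSME2 stood at 44.2, 99 and 23.4 CPM with vehicle, 32.3, 37.7 and 39.8 with endothelin-1, 41.1, 34.7 and 41 with sacubitrilat, and 34.4, 44.1 and 37.1 with both. Groups overlapped in each comparison of these 2 genes, and PSME1 passed against vehicle in the fits without vehicle library 1 (edgeR adjusted p = 0.0310 with endothelin-1 and 0.0426 with sacubitrilat). PSMF1, a regulator that inhibits the core in vitro, stood at 72.6, 49.5 and 58.6 CPM with vehicle, 76.3, 73.3 and 59.3 with endothelin-1, 72.7, 81.2 and 72.7 with sacubitrilat, and 22.9, 56.7 and 44.5 with both. It was lower with both than with endothelin-1 and sacubitrilat with no filter (edgeR adjusted p = 0.0184 and 0.0182) and without vehicle library 1 (0.0378 and 0.0382), and did not pass in the reported fit. PSME3IP1, which binds PSME3, ranged over 11.5 to 55.2 CPM and did not pass in the reported fit. Named after its values were seen, it was lower with both than with sacubitrilat by limma-voom (adjusted p = 0.0469), with no filter (edgeR 0.00932) and without vehicle library 1 (0.0161), 2 (0.0270) or 3 (0.0341), and lower than with endothelin-1 with no filter (0.0268) and without vehicle library 1 (0.0365).

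The immunoproteasome genes were near the detection floor in the shallow groups, as were PSMB8 and PSMB9 with sacubitrilat. In CPM, PSMB8 was higher with endothelin-1 than with sacubitrilat. PSMB8 (chromosome 6, 32840717 to 32844679), the inducible counterpart of PSMB5, stood at 9.47, 24.7 and 11.7 CPM with vehicle, 7.86, 4.75 and 5.82 with endothelin-1, 2.2, 1.58 and 1.54 with sacubitrilat, and 0, 6.3 and 0 with both. Endothelin-1 and sacubitrilat libraries did not overlap. In counts this was 7, 31, 8 and 1, or 12.3, 6.23, 1.75 and 2.62 CPM pooled over each group, with exact 95% Poisson intervals of 4.95 to 25.4, 4.23 to 8.84, 0.754 to 3.44 and 0.0664 to 14.6 CPM (counting error only). The filter removed PSMB8 from the reported test. With no filter it was higher with endothelin-1 than with sacubitrilat (log2 1.865 ± 0.51, edgeR adjusted p = 0.0141). The difference was 1.87 to 1.89 (edgeR adjusted p of 0.00667 to 0.0116) in 7 fits that left out 1 shallow library or the 2 under 100000 counts. In these fits the gene's level with vehicle carried it past the filter. All 7 fits held the same deep counts, so they do not test the difference anew. The fit of the 2 deep groups alone did not test PSMB8, and no fit that left out a deep library did. PSMB9, which replaces PSMB6, stood at 9.47, 37.1 and 17.6 CPM with vehicle, 8.42, 1.36 and 4.07 with endothelin-1, 0.734, 1.97 and 3.07 with sacubitrilat, and 0 in each combined library. The deep groups overlapped, and PSMB9 did not pass between them in any of the 8 alternative fits that tested it (edgeR adjusted p of 0.114 to 0.229). With no filter both genes were lower with sacubitrilat than with vehicle (log2 -2.56 for PSMB8 and -2.76 for PSMB9, edgeR adjusted p = 0.0315 and 0.00590). In fits that left out 1 shallow library the count of lower genes there was 2, or 1 without vehicle library 2, and the genes had entered those fits through the vehicle libraries where they were high. The vehicle values rest on 7 and 9 counts. The sums of immune and endoderm markers were also higher with vehicle than in the deep groups, and the part of these markers in this difference was not tested. PSMB10, which replaces PSMB7, stood at 7.89, 12.4 and 14.7 CPM with vehicle, 8.7, 10.5 and 10.2 with endothelin-1, 11, 10.6 and 9.98 with sacubitrilat, and 5.73, 12.6 and 14.8 with both. Pooled levels were 9.65 CPM (95% interval 7.11 to 12.8) with endothelin-1 and 10.5 (7.72 to 13.9) with sacubitrilat, and groups overlapped. PSMB11, the thymic subunit, had 0 counts in all libraries, and PSMC3IP, which acts in meiotic recombination, had 0, 19, 20 and 1 counts.

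Genes of the wider pathway were read from 7 lists with 50 tested genes outside the name rule. Between the deep groups 4 of 50 were higher with endothelin-1 (6.44% of all genes) and 0 lower (4.78%) by edgeR (10 and 3 at an unadjusted p under 0.05). NFE2L1, the transcription factor of proteasome genes, stood at 85.2, 80.4 and 44 CPM with vehicle, 138, 142 and 128 with endothelin-1, 103, 85.2 and 98.8 with sacubitrilat, and 91.7, 72.4 and 63 with both. The endothelin-1 libraries lay above the other 9, by 0.62 ± 0.11 on the log2 scale against sacubitrilat (edgeR adjusted p = 1.56e-04) and 0.95 ± 0.24 against vehicle (0.00286). The muscle ubiquitin ligase TRIM63 stood at 28.4, 12.4 and 17.6, then 51.6, 39.4 and 43.6, then 16.9, 30.0 and 29.7, and then 34.4, 31.5 and 7.41 CPM with vehicle, endothelin-1, sacubitrilat and both. FBXO32, another, stood at 31.6, 0 and 17.6, at 63.4, 55.6 and 62.2, at 43.3, 41 and 45.6, and at 11.5, 18.9 and 7.41 CPM in the same order. Both were higher with endothelin-1 than with sacubitrilat without overlap (log2 0.92 ± 0.19 and 0.59 ± 0.15, edgeR adjusted p = 5.49e-04 and 0.00538). In this comparison PSMB1 and PSMB2 were lower, with calls lost in several fits, and no tested proteasome gene was higher. A link between these genes and NFE2L1 or the 2 ligases was not tested. B2M, the light chain of class I molecules, was also higher with endothelin-1 (log2 0.68 ± 0.15, edgeR adjusted p = 0.00114). The B2M call was lost without sacubitrilat library 3 (edgeR adjusted p = 0.0584) and with DESeq2 (0.297), and that of FBXO32 with limma-voom (0.132).

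Across unlike depths, each gene of interferon and class I presentation that passed was higher in the shallow group of its comparison. Of 10 tested, 3 were lower with endothelin-1 than with vehicle (12.2% of all genes) and 0 higher by edgeR (5 and 0 at an unadjusted p under 0.05), and 5 were lower with sacubitrilat (11.2% of all genes) and 0 higher (8 and 0). IRF1, an interferon-induced transcription factor, was lost from both counts without vehicle library 2 (edgeR adjusted p = 0.143 and 0.144) or 3 (0.298 and 0.285) and with the replicate block (0.0600 and 0.0610). TAPBP, named after its values were seen, was lost with sacubitrilat without any 1 vehicle library (0.354 without library 2), without combined library 2 (0.0521) and with the block (0.0552). HLA-B, a class I heavy chain, stood at 85.2, 513 and 67.4 CPM with vehicle, 63.3, 59.8 and 62.4 with endothelin-1, 61.6, 30.0 and 44.7 with sacubitrilat, and 80.2, 104 and 141 with both. Vehicle library 2 stood far above the rest, and without it the difference of endothelin-1 from vehicle moved from -1.19 ± 0.32 (edgeR adjusted p = 0.00616) to -0.36 (0.441). B2M, lower with sacubitrilat than with vehicle, stood at 126, 94.5 and 119 CPM with both, below all endothelin-1 libraries. In the combined group 3 of the 10 genes were higher than with endothelin-1 (16.6% of all genes) and 5 higher than with sacubitrilat (17.2%). Of the 10 genes, 0 were lower by edgeR in either comparison, also at an unadjusted p under 0.05. The sums of endoderm and immune markers, given above, were likewise higher in the shallow libraries, and the part of these markers in these differences was not tested.

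PAAF1, which binds free ATPases during assembly, stood at 78.9, 111 and 90.8 CPM with vehicle, 32.3, 40.7 and 39.3 with endothelin-1, 38.2, 37.1 and 39.2 with sacubitrilat, and 149, 94.5 and 111 with both. Its deep libraries lay below all shallow ones, with log2 differences of -1.20 ± 0.25 and -1.29 ± 0.25 against vehicle (edgeR adjusted p = 4.27e-04 and 2.57e-04). Of 10 ubiquitin shuttle and VCP genes, 4 fell in the combined group against endothelin-1 (17.8% of all genes) and 1 rose (16.6%). They were, among others, the shuttles RAD23B (log2 -1.81 ± 0.51) and UBQLN2 (-1.84 ± 0.53) and the VCP cofactor NSFL1C (-1.91 ± 0.45), and NPLOC4, another cofactor, rose (0.93 ± 0.22). The edgeR adjusted p were 0.00532, 0.00649, 0.00104 and 0.00130. The combined values of these 4 genes rest on 7, 6, 8 and 85 counts in the same order. RAD23B was at 0 in combined library 3 and NSFL1C in combined library 1. RAD23B did not pass without combined library 3 (0.0549), nor NPLOC4 without combined library 2 (0.0875) or 3 (0.149). FBXO32 also fell there (log2 -2.23 ± 0.52, edgeR adjusted p = 0.00102), and its combined value rests on 5 counts. The 8 other subunits and bound factors of the complete proteasome that do not bear the PSM name gave 0 calls by edgeR in each pairwise comparison, and 1 lower at an unadjusted p under 0.05 between the deep groups. Between both and vehicle 0 of the 50 pathway genes passed by edgeR, with 2 higher and 4 lower at an unadjusted p under 0.05.

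The interaction of the compounds compares the change with sacubitrilat in the presence and in the absence of endothelin-1. Of 40 proteasome genes 11 had an interaction below 0, against 26% of all genes, and 3 above 0, against 20.1%. It was -2.96 ± 0.43 for PSMD3 (edgeR adjusted p = 6.25e-07) and -2.10 ± 0.34 for PSMB1 (4.64e-06) on the log2 scale. The 2 groups entering with a plus sign are the shallow ones and the 2 with a minus sign the deep ones, so that interaction and depth cannot be told apart. The count of 3 was 0 without vehicle library 1 or combined library 2 or 3, 1 without vehicle library 2 or 3, and 5 without endothelin-1 library 1 or 2 or sacubitrilat library 2.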

How the data were processed

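Each of 12 libraries (4 groups of 3, grouped by title) was deposited with expected counts and CPM per gene. Per the labels' protocols, the libraries were stranded, single-end and primed at the poly(A) tail with molecular identifiers, and each came from a separate culture, per the series' design text. Per the submitters' processing notes, the authors used fastp 0.24.0 and featureCounts on GRCh38/hg38; not given in the sources used here were the aligner, the annotation release, the strand setting and the use of the identifiers. The deposited expected counts hold fractions and are taken as estimated counts, which were rounded here. The deposited CPM values, made by the authors, equal each gene's share of its library's counts (largest difference 1.46e-11) and are printed as levels. They are not scaled by length, so levels are not compared between genes. Spike-in features, 92 in number, held 0 counts.

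Counts were tested in R 4.3.3 with edgeR 4.0.16 (quasi-likelihood, TMM scaling, filterByExpr, all 12 libraries, group as the only term) with Benjamini-Hochberg adjustment over 11203 genes at 0.05; intervals are estimate ± 1.96 SE. Tests were checked on simulated counts with 200 changed genes. For endothelin-1 against sacubitrilat 26% of 1.3-fold and 94% of 2-fold changes were recovered, and 9.62% of calls were false. False calls were 5.48% for endothelin-1 against vehicle, 0% for both against endothelin-1 and 5.13% for both against vehicle. DESeq2 1.42.0, limma-voom 3.58.1, other scaling and filters, a replicate block, thinning and left-out libraries were alternatives. The replicate number, which the labels give as a batch and the titles as a biological replicate, was not in the reported fit. It paired libraries only in the replicate block, an alternative. Same-numbered libraries did not deviate together (18 pairs, r from -0.146 to 0.0396). The totals of 80844 to 1953122 counts put a floor of 3 counts at 1.54 to 37.1 CPM; intervals and floors cover counting error only. Figures used matplotlib 3.10.9. Values per library are given for a panel of 17 genes and for up to 4 genes per direction and pairwise comparison by p; genes outside the name rule come from pathway lists, up to 4 per direction. The values of 1 listed gene are not reported here. The members and lists were chosen with earlier results of these data known. Pseudogenes named after 17 of the genes, 43 in number, were counted apart, and 23 of the 46 genes had fractional counts, so that reads of near-identical copies may be split. Gene coordinates and promoters are from RefSeq (GRCh38.p14).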

Additional observations from a re-analysis of the deposited data

Results flagged for a closer look

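The change with sacubitrilat differed in the presence and absence of endothelin-1 for 14 of 40 tested proteasome genes, by the interaction term of the edgeR fit. The interaction was below 0 for 11, against 26% of all genes, and above 0 for 3, against 20.1%, so that the share of proteasome genes was near or under the background. In the alpha ring it was -1.307 for PSMA1, -1.301 for PSMA4 and -1.6 for PSMA5 on the log2 scale. In the beta ring it was -2.1 for PSMB1, -1.102 for PSMB2, -1.47 for PSMB4, -1.353 for PSMB5 and -1.359 for PSMB6. In the regulatory particle it was -2.964 for PSMD3 and -1.825 for PSMD2, and for the chaperone PSMD9 it was -2.38. It was above 0 for PSMA3 (0.9959), PSMA6 (1.399) and PSMD1 (0.9485). Adjusted p ran from 6.25e-07 (PSMD3) to 0.0239 (PSMA3). Each of these terms sets the shallow groups against the deep groups, and they cannot be told apart from depth.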

How the results depend on the processing

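Counts of proteasome genes higher and lower, in that order, moved as follows by edgeR unless another tool is named. With no filter (44 genes tested), sacubitrilat against vehicle gave 2 lower, both against endothelin-1 gave 0 and 17, both against sacubitrilat 0 and 18, endothelin-1 against sacubitrilat 1 and 0, and the interaction 0 and 20. With a mean of at least 50 counts (26 tested), endothelin-1 against vehicle gave 2 and 2, sacubitrilat against vehicle 2 higher, both against endothelin-1 8 and 2, both against sacubitrilat 6 and 5, and the interaction 8 and 4. Thinned to 80000 counts (16 tested), endothelin-1 and sacubitrilat against vehicle each gave 0 higher, both against endothelin-1 1 and 0, both against sacubitrilat 0 and 1, endothelin-1 against sacubitrilat 0 lower, and the interaction 1 and 2. DESeq2 gave 1 higher for both against endothelin-1 and 0 for both against sacubitrilat. With limma-voom 3 were higher for endothelin-1 against vehicle and 0 lower for endothelin-1 against sacubitrilat. In fits of the compared groups alone, endothelin-1 against vehicle gave 3 and 1, sacubitrilat against vehicle 2 higher, and both against endothelin-1 6 lower. Without the 2 libraries under 100000 counts, 2 were lower in endothelin-1 and in sacubitrilat against vehicle, and 1 was higher in endothelin-1 against sacubitrilat. The 2 lower with sacubitrilat were PSMB8 and PSMB9, and the 1 higher was PSMB8. Neither gene was tested in the reported fit, and their levels with vehicle carried them past the filter here. With no filter the same genes gave the 2 lower and the 1 higher. The replicate block left 0 higher in both against sacubitrilat and 1 lower in endothelin-1 against sacubitrilat and ended the calls named with it in the report; it changed no other call of a gene described there. Adding pseudogene counts, chosen after seeing the data, gave 12 lower for both against sacubitrilat and 13 for the interaction, and left the other counts as they were.

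With 1 library left out, higher and lower counts ranged from 2 to 5 and 0 to 1 for endothelin-1 against vehicle, 0 to 4 and 6 to 16 for both against endothelin-1, 2 to 5 and 0 to 2 for sacubitrilat against vehicle, 0 to 2 and 7 to 17 for both against sacubitrilat, 0 to 1 and 0 to 3 for endothelin-1 against sacubitrilat, 0 to 5 and 9 to 16 for the interaction, and 0 throughout for both against vehicle. The genes lower with sacubitrilat against vehicle were again PSMB8 and PSMB9, and the gene higher between the deep groups was PSMB8. Both entered those fits through their levels with vehicle. Directions turned for 8 differences. Thinning gave log2 values of -0.032 and -0.079 for PSMD2 in endothelin-1 and sacubitrilat against vehicle, -0.00945 for PSMB1 in both against vehicle and -0.15 for PSMB5 in endothelin-1 against sacubitrilat. For PSMB1 in both against vehicle it was -0.10 with no filter, -0.14 without the 2 libraries under 100000 counts, and from -0.11 to 0.30 with 1 library left out, below 0 without vehicle library 1 or 2 or combined library 1. Between the deep groups, leaving out 1 library gave -0.053 (without sacubitrilat library 2) to 0.14 for PSMB5, -0.015 (without sacubitrilat library 2) to 0.097 for PSMD3, and -0.089 to 0.040 for PSMB4 (above 0 without endothelin-1 library 1 or sacubitrilat library 1 or 3). The interaction of PSMD1 ran from -0.12 (without vehicle library 1) to 1.21, and HLA-E in both against endothelin-1 from -0.10 (without combined library 2) to 1.22. The cause was not tested.

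The depth of the shallow libraries, with a median of 4 to 22 counts per tested proteasome gene, limits every comparison with vehicle or both. The comparison of the deep groups also shared its filter and estimate of spread with the shallow libraries. It called 1257 genes in the reported fit and 2106 in the fit of these 2 groups alone.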
